A study of Mus musculus with 24 samples.

Results

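The genes described here are angiogenic ligands, their receptors and endothelial markers, 10 of the 55487 genes listed for this series, taken by name. Vegfa, Vegfb, Angpt1, Angpt2 and Apln encode secreted ligands, Kdr, Flt1 and Tek encode receptor tyrosine kinases of the endothelium, and Pecam1 and Cdh5 encode adhesion molecules of endothelial junctions. VEGF-A drives capillary growth mainly through Kdr, while Flt1 binds VEGF-A tightly with weaker signalling and also binds VEGF-B. Angiopoietin-1, made by perivascular cells, activates Tek (Tie2) and stabilizes vessels, and angiopoietin-2, released by endothelial cells, can oppose it. In skeletal muscle the fibers themselves are a source of VEGF-A, capillaries run along each fiber, and a bout of exercise is a known stimulus of Vegfa transcription.

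Tibialis anterior (TA) muscle of 24 male wild-type C57BL/6J mice, 5 to 7 weeks old, was profiled by poly(A) RNA sequencing, with 6 mice in each of 4 groups. Sedentary PBMT and fatigued PBMT mice received photobiomodulation therapy (PBMT), an exposure to 830 nm light at 25 mW/cm2 for 20 min (30 J/cm2), 24 h before dissection. Sedentary control and fatigued control mice were shaved and anesthetized but received no light, and no sham lamp or heat-only control was used. Fatigued mice had just run to exhaustion on a treadmill when the muscle was taken, and they were sequenced in a separate project from the sedentary mice, so that the state of the muscle and the sequencing project cannot be told apart.

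The libraries held 43271093 to 46904076 counts in sedentary controls and 46327516 to 52775844 in sedentary PBMT mice. They held 56792327 to 68726155 in fatigued controls and 53122528 to 68566029 in fatigued PBMT mice. All 10 genes passed the filter on low counts in each fit. The lowest count of any of them in a mouse was 38, for Apln, and the highest was 10524, for Vegfa. Levels within a gene are given in CPM after TMM scaling, and levels of different genes are compared in TPM, which also divides by the length of all exons of a gene together. SE is the standard error of a log2 fold change.

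The libraries of sedentary control replicate 4 and fatigued PBMT replicate 5 stood apart from the rest. Over 11727 genes, the standard deviation of the log2 difference from the other libraries of the group had a median of 0.523 and 0.505 in them, against 0.277 to 0.418 in the other 22 libraries. Counts of members are therefore also given without them where they entered.

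On the TPM scale the ligand Vegfb was the most abundant of the 10, at 156 ± 21.3 TPM (SD, n = 24 mice), and it was the highest in 24 of 24 mice. Cdh5 and Vegfa followed at 61.0 ± 10.7 and 60.3 ± 16.8 TPM, and neither was consistently above the other, with Cdh5 higher in 12 of 24 mice. In sedentary mice the mean of Cdh5 was the higher, at 54.6 against 48.1 TPM in controls and 55.9 against 48.8 TPM with PBMT. In fatigued mice it was the lower, at 66.3 against 69.2 TPM in controls and 67.0 against 75.0 TPM with PBMT. Pecam1 lay at 36.3 ± 7.87 TPM. Among the receptors, the level of Flt1 was 17.4 ± 3.15 TPM, of Tek 13.4 ± 3.46 TPM and of Kdr 9.92 ± 4.39 TPM. Flt1 was above Tek in 18 of 24 mice and Tek above Kdr in 23 of 24. The angiopoietins and apelin were the least abundant, with Angpt1 at 5.50 ± 0.942 TPM, Apln at 2.40 ± 1.21 TPM and Angpt2 at 2.10 ± 0.883 TPM. Angpt1 exceeded Apln in 23 of 24 mice, whereas Apln exceeded Angpt2 in 12 of 24, so that this lowest pair could not be ordered. The length assigned to a gene sets part of this order. With the longest transcript as the length, Vegfb was still highest in 24 of 24 mice and Flt1 was above Tek in 24 of 24, but Tek was above Kdr in 10 of 24, and Pecam1 came to 54.2 TPM, beside 52.9 TPM for Cdh5 and 61.6 TPM for Vegfa. The place of Vegfb at the top, of Flt1 above Tek and Kdr on average, and of Angpt1, Apln and Angpt2 at the bottom held with either length.

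**Figure D1:**
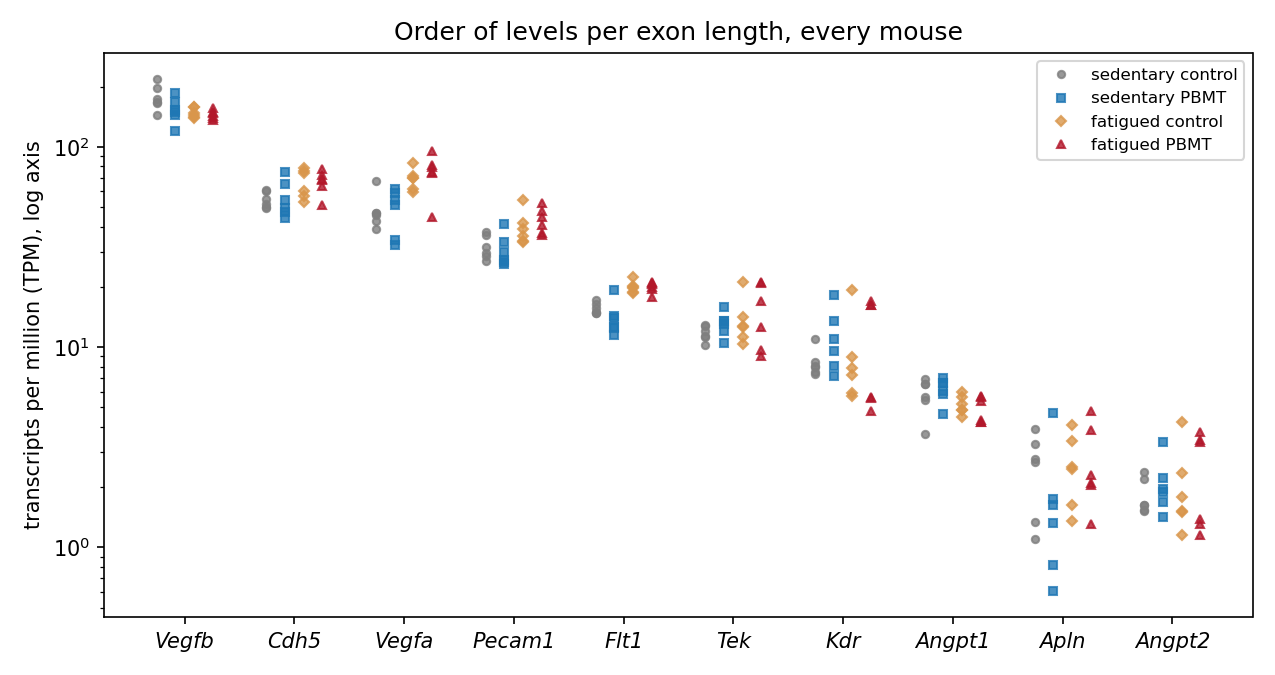
Level of each gene in every mouse in TPM (log axis), genes ordered by their mean over 24 mice and symbols by group (6 mice each). Vegfb was highest in 24 of 24 mice, while the clouds of Cdh5 and Vegfa, and of Apln and Angpt2, lie over each other.

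The ratio of Vegfb to Vegfa on the TPM scale had a geometric mean of 3.72 in sedentary controls, 3.22 in sedentary PBMT, 2.15 in fatigued controls and 1.98 in fatigued PBMT mice (n = 6 each). The ratio of Flt1 to Kdr was 1.88, 1.29, 2.40 and 2.14 in the same order. Angpt1 exceeded Angpt2 by 3.18, 3.03, 2.71 and 2.30 times, and Cdh5 exceeded Pecam1 by 1.73, 1.81, 1.68 and 1.55 times. The last excess depends on the length used, since with longest transcripts the ratio of Cdh5 to Pecam1 was 1.01, 1.05, 0.977 and 0.902.

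The first comparison, PBMT against control in sedentary muscle, shows the vascular genes after PBMT without exercise. None of the 10 genes changed at an adjusted p under 0.05, with 0 called by edgeR, 0 by DESeq2 and 0 by limma voom. Over all genes, edgeR called 4 of 14177 (0.0282%), DESeq2 60 and limma voom 47. The count of 4 was 18 without control replicate 4, 20, 10 and 7 without PBMT replicates 5, 2 and 4, and 2 without control replicates 1, 2 or 6. At an unadjusted p under 0.05 edgeR gave 2 of the 10, Kdr and Tek, and 7.63% of all genes. The light and control groups overlapped in all 10, where 0.48% of all genes tested had groups that did not overlap. The median log2 fold change was 0.06 over the 10 genes and -0.00 over all genes, with 6 of the 10 higher and 4 lower.

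Among the VEGF ligands, Vegfb, which is known for its part in fatty acid handling and vessel survival, had a lowest, median and highest value of 94.2, 109 and 132 CPM in sedentary controls. With PBMT these were 73.4, 99.8 and 116 CPM. All but replicate 6 of the PBMT mice lay within the range of the controls, and the log2 fold change was -0.17 (SE 0.10, edgeR adjusted p = 0.674), or -0.10 without replicate 6. Vegfa had 69.3, 78.0 and 109 CPM in controls and 53.2, 93.4 and 103 CPM with PBMT. Of its PBMT mice, 4 lay within the range of the controls, between 92.1 and 103 CPM, and 2, replicates 5 and 6, lay below every control. Apln, a peptide ligand made by sprouting endothelial cells, had 1.30, 3.51 and 4.71 CPM in controls and 0.805, 1.92 and 5.78 CPM with PBMT. Its highest and its lowest value of all 24 mice both lay in the PBMT group, in replicates 2 and 5, and the log2 fold change of -0.47 had an SE of 0.44 (edgeR adjusted p = 0.769). For Apln it was -1.004 without replicate 2 and -0.30 without replicate 5, and limma voom gave -0.97.

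Among the receptors, Kdr had a lowest, median and highest value of 27.1, 28.5 and 37.0 CPM in sedentary controls and 24.7, 38.5 and 64.4 CPM with PBMT. PBMT replicates 1, 2 and 3 lay above every control and replicate 6 below every control, so the groups overlapped and the treated group was the more dispersed. Kdr had a log2 fold change of 0.45 with an SE of 0.18 (edgeR adjusted p = 0.607), and an exact permutation test of 6 against 6 mice gave a two-sided p of 0.104. Without PBMT replicate 2 the log2 fold change of Kdr was 0.28. Tek, the angiopoietin receptor, had 20.01, 21.7 and 24.7 CPM in controls and 20.2, 24.7 and 29.2 CPM with PBMT. PBMT replicates 1, 2 and 5 exceeded the highest control and no PBMT mouse fell under the lowest. The log2 fold change of Tek was 0.19 (SE 0.08, edgeR adjusted p = 0.648, exact permutation p = 0.0736).

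Flt1 went the other way in most treated mice. It had 76.9, 83.5 and 93.9 CPM in sedentary controls and 64.2, 71.2 and 111 CPM with PBMT. Of the PBMT mice, 4 lay below every control and replicate 5 lay above every control at 111 CPM, and the log2 fold change was -0.12 (SE 0.11, edgeR adjusted p = 0.769). That of Flt1 was -0.26 without replicate 5 and -0.07 without replicate 6. The ligand Angpt2 had 2.24, 2.40 and 3.37 CPM in controls and 2.00, 2.92 and 4.84 CPM with PBMT, with a log2 fold change of 0.23 (SE 0.19) that fell to 0.06 without PBMT replicate 2. Vegfa, Angpt1 and the junction genes Pecam1 and Cdh5 had smaller differences than Angpt2. In bulk tissue, a difference in the number of endothelial cells and a difference in RNA per cell cannot be told apart.

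**Figure D2:**
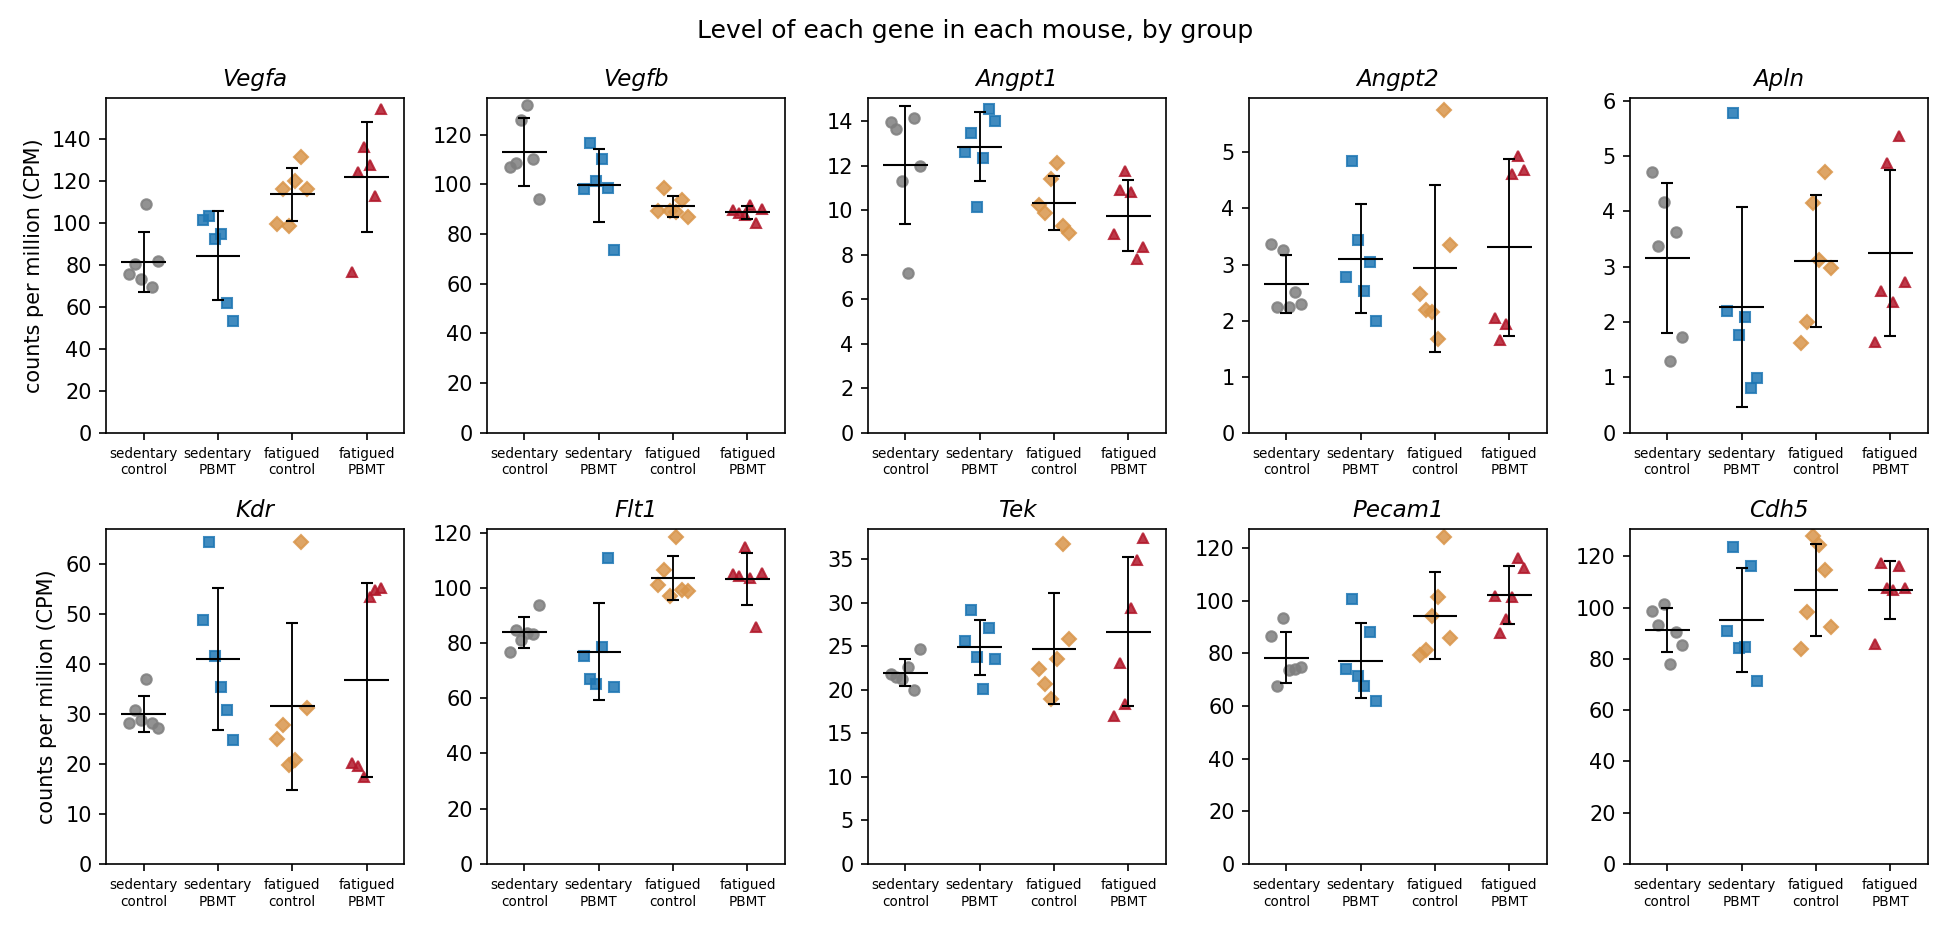
CPM of each of the 10 genes in each mouse by group; points are mice (6 per group), horizontal bars group means and whiskers 1 SD. In the fatigued groups Kdr, Angpt2 and Tek were high in the same 4 mice, and Flt1 was higher in each fatigued control than in every sedentary control.

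The second comparison, PBMT against control in fatigued muscle, concerns mice that ran to exhaustion. Running times were not held equal and are not in the labels, so the light and the time run cannot be told apart in it. None of the 10 genes was called as changed, with 0 by edgeR, 0 by DESeq2 and 0 by limma voom, and 0 had an unadjusted p under 0.05. The widest 95% confidence interval of a fold change among them was that of Kdr, 0.64 to 2.15. Over all genes edgeR called 0 of 14574 (0%), DESeq2 2 and limma voom 0, and 1.58% had an unadjusted p under 0.05. The groups overlapped in all 10 genes, while 0.0274% of all genes tested had groups that did not overlap. The median log2 fold change was 0.09 over the 10 genes and 0.00 over all genes.

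Vegfa had a lowest, median and highest value of 98.4, 116 and 131 CPM in fatigued controls and 76.6, 126 and 154 CPM with PBMT. PBMT replicates 3 and 6 lay above every control and replicate 1 below every control, and the log2 fold change was 0.11 (SE 0.13, exact permutation p = 0.632). For Vegfa it ranged from 0.03 without PBMT replicate 6 to 0.21 without PBMT replicate 1. In these groups Vegfb varied little, at 86.8 to 98.4 CPM in fatigued controls and 84.6 to 91.8 CPM with PBMT, with a log2 fold change of -0.04 (SE 0.05). Flt1 kept to 97.1 to 118 CPM in controls and 85.8 to 115 CPM with PBMT. Pecam1, which marks endothelium, platelets and some leukocytes, had 79.4, 90.0 and 124 CPM in controls and 87.6, 102 and 116 CPM with PBMT, every PBMT value within the range of the controls (log2 fold change 0.11, SE 0.11, exact permutation p = 0.303). For Pecam1 it ranged from 0.07 without control replicate 1 to 0.21 without control replicate 5. Cdh5, the cadherin of endothelial junctions, ranged from 84.0 to 128 CPM in controls and from 85.7 to 117 CPM with PBMT. Angpt1 and Apln likewise overlapped between the groups, at 8.99 to 12.1 against 7.82 to 11.8 CPM and at 1.62 to 4.71 against 1.64 to 5.36 CPM.

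Kdr divided the fatigued mice into high and low animals that the treatment did not define, and Angpt2 and Tek were highest in the same high animals. Kdr had a lowest, median and highest value of 19.8, 26.4 and 64.2 CPM in fatigued controls and 17.4, 36.8 and 55.1 CPM with PBMT. It lay between 53.3 and 64.2 CPM in fatigued control replicate 5 and fatigued PBMT replicates 4, 5 and 6, and between 17.4 and 31.1 CPM in the other 8, so that no fatigued mouse fell into a gap of 1.72-fold. Angpt2 was at 4.62 to 5.76 CPM in the same 4 mice and at 1.65 to 3.36 CPM in the other 8. Tek was at 29.4 to 37.4 CPM in these 4 and at 16.97 to 25.9 CPM in the other 8. For each of these 3 genes the 4 mice lay above the 8, but Angpt2 and Tek had no gap as wide as that of Kdr. Tek had a wider step within the 4, from 29.4 to 35.0 CPM, than between the 8 and the 4. This order was not shared by Cdh5, at 107 to 116 CPM in the 4 mice and 84.0 to 128 CPM in the 8, nor by Flt1, at 85.8 to 105 and 97.1 to 118 CPM. Pecam1 lay between, with 3 of the 4 mice above all 8. As 1 control and 3 PBMT mice were high, the log2 fold change of Kdr was 0.23 with a SE of 0.40 (edgeR adjusted p = 1.00, exact permutation p = 0.656), and it was 0.56 without fatigued control replicate 5 and 0.09, 0.08 and 0.07 without fatigued PBMT replicates 4, 5 and 6. That of Angpt2 was 0.18 with a SE of 0.36, and it was 0.49 without that control and 0.06, 0.03 and 0.05 without those PBMT mice. Skeletal muscle fiber markers, given below for all groups, had their lowest summed levels of each fatigued group in these 4 mice, at 151316 CPM in control replicate 5 and 165731, 156919 and 170423 CPM in PBMT replicates 4, 5 and 6, and their part in these values was not tested.

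**Figure D3:**
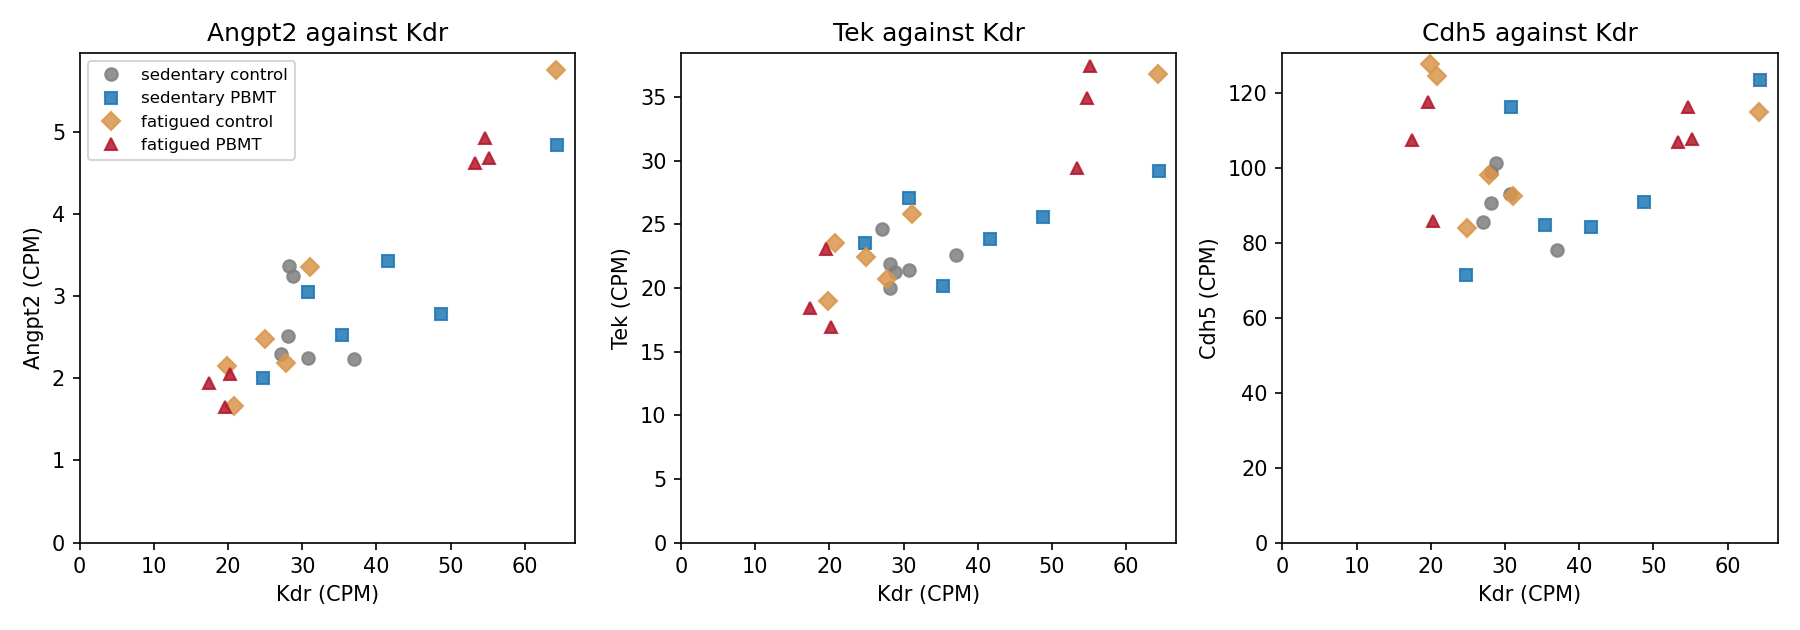
CPM of Angpt2, Tek and Cdh5 against CPM of Kdr, 1 point per mouse, symbols by group (6 mice each). In the fatigued groups 4 mice with Kdr at 53.3 to 64.2 CPM also had the highest Angpt2 and Tek, while their Cdh5, at 107 to 116 CPM, lay within the range of the other fatigued mice.

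Because Kdr fell into 2 clusters of fatigued mice and Angpt2 and Tek followed the same order, the relations of these 3 genes with the other members were computed within the 12 sedentary mice, centred on their group means, and no pooled value is given. The clusters were drawn from the values of Kdr. For pairs with Kdr no value is given within the fatigued mice, as it would be no test of whether a relation recurs. Pairs of Angpt2 or Tek with the other members were also computed in the 8 fatigued mice with lower Kdr. There 0 of these pairs had an adjusted p under 0.05. Those 8 mice were picked by low Kdr, and the 4 fatigued mice left out had the highest Angpt2 and Tek. The choice narrowed the range of both genes, so this count cannot decide whether a relation recurs. Of the 24 pairs that include Kdr, Angpt2 or Tek, 2 had a Benjamini-Hochberg adjusted p under 0.05 in the sedentary mice. In sedentary mice Kdr went with its ligand Vegfa (r = 0.86, rho = 0.76, n = 12, permutation p = 0.0004 and 0.0104, adjusted p of r = 0.0096), and r was 0.82 without the 2 mice farthest from the median. Angpt2 went with Pecam1 in sedentary mice (r = 0.89, rho = 0.82, n = 12, permutation p = 0.001 and 0.00427, adjusted p of r = 0.012, r = 0.74 without the 2 farthest mice). In the 8 fatigued mice with lower Kdr this pair had an r of -0.48 and a rho of -0.57. An exact permutation test over 40320 arrangements gave p = 0.226 and 0.151 (adjusted p of r = 0.545). In those 8 mice Angpt2 spanned only 1.65 to 3.36 CPM after the choice by Kdr, so these values cannot decide whether the relation recurs. For Kdr and Angpt2 in sedentary mice r was 0.61 and rho 0.42 (permutation p = 0.0909 and 0.250, adjusted p of r = 0.252), and r was -0.20 without the 2 farthest mice, so this relation rested on those mice.

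Among the 21 pairs without these 3 genes, taken over all 24 mice with the group means removed, 2 had an adjusted p under 0.05, with adjustment over all 45 pairs. Both involved the junction genes. Pecam1 and Cdh5 had an r of 0.70 and a rho of 0.66 (permutation p = 0.00125 and 0.00267, adjusted p = 0.0112 and 0.0240), with an r of 0.89 within the sedentary project, 0.46 within the fatigued project and 0.65 without the 2 farthest mice. Apln and Cdh5 had an r of 0.60 and a rho of 0.54 (permutation p = 0.00651 and 0.0108, adjusted p = 0.0371 and 0.0605), with 0.53 and 0.71 within the projects and 0.74 without the 2 farthest mice. Vegfa and Vegfb had an r of 0.55 and a rho of 0.52 (permutation p = 0.0152 and 0.0165, adjusted p = 0.0621 and 0.0742), with 0.69 in sedentary and 0.17 in fatigued mice and 0.43 without the 2 farthest.

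The genes whose levels most resembled the mean of Pecam1 and Cdh5 over the 24 mice, after removal of group means, were Cd93 (r = 0.87), Cd38 (0.87), Bcl6b (0.86), Pcdh1 (0.86) and Abcg2 (0.85), out of 11717 genes. Those most like Vegfa were Perm1 (r = 0.85), Kcnc1 (0.85), Tln1 (0.84), Akap1 (0.82) and Miga2 (0.81). Within each project alone, r ranged from 0.81 to 0.95 for the former and from 0.76 to 0.92 for the latter. The genes were picked for high r over these same mice, so the values within each project are a description.

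Whether PBMT acted differently in the 2 states was tested as the difference between the PBMT effects, which uses all 4 groups. None of the 10 genes was called as changed in it, with 0 by edgeR, 0 by DESeq2 and 0 by limma voom, and 0 had an unadjusted p under 0.05. The widest 95% confidence interval among them, as a fold, was that of Apln, 0.63 to 3.37. Over all genes edgeR called 1 of 15108 (0.00662%), or 3 without sedentary PBMT replicate 2, and 4.40% had an unadjusted p under 0.05. The median was 0.00 over the 10 genes and 0.02 over all genes, and 0 of the 10 were called without the 2 libraries that stood apart. Apln had the largest difference among the 10 at 0.55 (SE 0.58). For Apln it was 1.07 without sedentary PBMT replicate 2, 0.34 without fatigued PBMT replicate 5 and 1.08 with limma voom. That of Kdr was -0.22 (SE 0.46) and turned to 0.11 without fatigued control replicate 5 and to -0.44 without the 2 libraries that stood apart.

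Levels in fatigued and sedentary muscle were compared within controls and within PBMT mice, each sharing its groups with the comparisons above. In controls, Vegfa and Flt1 rose and Vegfb fell, 3 of 10 genes at an adjusted p under 0.05 in edgeR, while 2809 of 15108 genes tested (18.6%) were called. In PBMT mice, Vegfa, Flt1 and Pecam1 rose and Angpt1 fell, 4 of 10 genes, while 26.8% of all genes were called. The groups did not overlap in 1 of the 10 genes in controls and 0 of 10 in PBMT mice, where 7.7% and 11.2% of all genes tested did not overlap. The median log2 fold change of the 10 genes was 0.16 in controls and 0.14 in PBMT mice, against -0.01 and 0.00 over all genes. The genes called among the 10 are too few to set their share apart from that of all genes. Without the 2 libraries that stood apart, 4 of 10 genes were called in each comparison, with Angpt1 added in controls (adjusted p = 0.0221), while 4052 of 15171 genes tested were called in controls and 4172 in PBMT mice. Skeletal muscle fiber markers had a median summed level of 129791 CPM in sedentary controls and 183441 CPM in fatigued controls. In controls 5 of 8 of them were called as higher, with 1 of 7 macrophage, 0 of 7 interstitial mesenchymal and 3 of 5 lymphatic markers. Called or not, 7 of 8, 7 of 7, 6 of 7 and 5 of 5 were higher there. In PBMT mice 3 of 8 fiber, 7 of 7 macrophage, 5 of 7 interstitial mesenchymal and 3 of 5 lymphatic markers were called as higher. Called or not, 7 of 8, 7 of 7, 7 of 7 and 5 of 5 were higher in them. The part of these cells in the differences was not tested.

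Vegfa, the ligand of Kdr and Flt1, was 81.5 ± 14.3 CPM in sedentary controls and 114 ± 12.6 CPM in fatigued controls (SD, n = 6 each), and 4 of 6 fatigued controls lay above the highest sedentary control, replicate 4 at 109 CPM. The log2 fold change was 0.48 (SE 0.16, edgeR adjusted p = 0.0369). In PBMT mice it was 84.4 ± 21.4 against 122 ± 26.2 CPM (SD, n = 6 each), 5 of 6 fatigued mice lay above every sedentary mouse, and the log2 fold change was 0.53 (SE 0.16, edgeR adjusted p = 0.0147). In controls an exact permutation test gave p = 0.00649, and the log2 fold change of Vegfa stayed between 0.43 and 0.58 whichever library was left out, while the edgeR call did not hold throughout. The adjusted p of Vegfa was 0.0588, 0.0629, 0.0753 and 0.0572 without fatigued control replicates 2, 4, 5 and 6, and 0.0672, 0.0602, 0.0676, 0.0845 and 0.0589 without sedentary control replicates 1, 2, 3, 5 and 6. It was 0.0763 with no filter on low counts and 0.0572 with the length trend removed.

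Flt1, which binds VEGF-A and VEGF-B, was 83.9 ± 5.60 CPM in sedentary controls and 104 ± 7.96 CPM in fatigued controls (SD, n = 6 each). The lowest fatigued control, at 97.1 CPM, lay above the highest sedentary control, at 93.9 CPM, so all 6 were higher. The log2 fold change was 0.30 (SE 0.10, edgeR adjusted p = 0.0352) in controls and 0.43 (SE 0.10, edgeR adjusted p = 0.00258) in PBMT mice. In PBMT mice the level went from 76.8 ± 17.6 to 103 ± 9.47 CPM (SD, n = 6 each), with sedentary PBMT replicate 5 at 111 CPM inside the range of the fatigued mice. In controls an exact permutation test gave p = 0.00216, and the log2 fold change of Flt1 stayed between 0.26 and 0.34 whichever library was left out. The adjusted p of Flt1 was 0.0501, 0.0601 and 0.0837 without fatigued control replicates 1, 2 and 4, 0.0774, 0.0529, 0.0583 and 0.0623 without sedentary control replicates 1, 2, 3 and 5, and 0.133 with the length trend removed. Kdr, the other VEGF-A receptor, did not pass in either comparison. Among fatigued controls, 1 lay above and 3 below every sedentary control, and among fatigued PBMT mice 0 lay above and 3 below every sedentary PBMT mouse.

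Vegfb was 113 ± 13.7 CPM in sedentary controls and 91.1 ± 4.22 CPM in fatigued controls (SD, n = 6 each), and 5 of 6 fatigued controls lay below the lowest sedentary control. Its log2 fold change of -0.31 (SE 0.08, edgeR adjusted p = 0.0107) stayed past the threshold without any single library. In PBMT mice the log2 fold change of Vegfb was -0.17 (SE 0.08, edgeR adjusted p = 0.145). It passed there at 0.0155 without sedentary PBMT replicate 6, whose 73.4 CPM was the lowest value of Vegfb in the series, and at 0.00584 with the trend on GC content removed.

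Angpt1, the ligand that activates Tek, was 12.9 ± 1.56 CPM in sedentary PBMT mice and 9.75 ± 1.604 CPM in fatigued PBMT mice (SD, n = 6 each), with 3 of 6 fatigued mice below every sedentary mouse. The log2 fold change was -0.40 (SE 0.13, edgeR adjusted p = 0.0277). An exact permutation test gave p = 0.0130, and the log2 fold change of Angpt1 stayed between -0.46 and -0.35 whichever library was left out. The adjusted p of Angpt1 was 0.0629, 0.0716 and 0.0790 without fatigued PBMT replicates 1, 5 and 6, 0.0525, 0.0759 and 0.0654 without sedentary PBMT replicates 1, 5 and 6, and with the trend on GC content removed the log2 fold change was -0.14 (adjusted p = 0.347). In controls its log2 fold change was -0.22 (SE 0.13, edgeR adjusted p = 0.260), and sedentary control replicate 4 had the lowest Angpt1 of all 24 mice, at 7.16 CPM. Without that mouse it was -0.34 (adjusted p = 0.0268), and limma voom gave -0.37 (adjusted p = 0.00738), while removing the trend on GC content brought Angpt1 to -0.06 (adjusted p = 0.742).

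Of the junction genes, Pecam1 was called in PBMT mice alone and Cdh5 in neither comparison. In the same PBMT mice 7 of 7 macrophage markers and 2 of 2 platelet markers tested were called as higher. Their median log2 fold changes were 1.13 and 1.03, where 26.8% of all genes were called. In controls 7 of 7 and 2 of 2 were also higher, with medians of 0.46 and 0.50. Of these, 1 and 0 were called, where 18.6% of all genes were called. In the difference of the PBMT effects 0 of 7 and 0 of 2 were called. The part of these cells in Pecam1 was not tested. Pecam1 was 77.3 ± 14.4 CPM in sedentary PBMT mice and 102 ± 10.9 CPM in fatigued PBMT mice (SD, n = 6 each), with 4 of 6 fatigued mice above every sedentary mouse. Its log2 fold change was 0.40 (SE 0.11, edgeR adjusted p = 0.0109) there and 0.27 (SE 0.11, edgeR adjusted p = 0.105) in controls. Whether Pecam1 differed between these comparisons is the difference of the PBMT effects, 0.13 with a SE of 0.16 (edgeR adjusted p = 0.949). The log2 fold change of Cdh5 was 0.23 in controls and 0.17 in PBMT mice (SE 0.12 each, edgeR adjusted p = 0.185 and 0.308).

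Genes of the same pathways were read from lists set beside the 10 genes, and 0 of the listed genes were called in either PBMT comparison or in their difference by edgeR. For these lists and the marker lists, counts of genes that rose, fell, or were raised or lowered are counts of genes called. Of 6 further VEGF family ligands and receptors, 2 had an unadjusted p under 0.05 in sedentary muscle, where 7.63% of all genes did. They were Pgf, a ligand of Flt1, with a log2 fold change of -0.80 and Vegfc, a ligand of lymphatic growth, with 0.49 (edgeR adjusted p = 0.440 and 0.638). The most abundant were the co-receptors Nrp1 and Nrp2, at means of 27.1 and 15.6 CPM. The lymphatic receptor Flt4 rose by 0.50 between sedentary and fatigued controls (edgeR adjusted p = 0.00375), the single call of 6, where 18.6% of all genes were called, and Vegfd was not called in any comparison.

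Of 7 further genes of the angiopoietin and Tie pathway, 6 were tested, and Ptprb and Foxo1 were the most abundant, at 105 and 53.7 CPM. Foxo1, a transcription factor that Tek signalling restrains, was 27.3 CPM on average in sedentary controls and 18.6 CPM in sedentary PBMT mice, with a log2 fold change of -0.55 (edgeR adjusted p = 0.0896). That did not pass, nor did it in 4 of 9 other settings, with 0.626 for all 24 mice in 1 model, or without 10 of the 12 mice in turn. The adjusted p of Foxo1 passed at 0.00166 with DESeq2, 0.0336 with limma voom, 0.0174 with no filter, 0.0287 and 0.0344 with the trends on length and GC content removed, 0.0380 without sedentary control replicate 4 and 0.0467 without sedentary PBMT replicate 5. Between sedentary and fatigued controls, 3 of the 6 rose and 1 fell, where 18.6% of all genes were called. Foxo1 rose by 1.67, to 86.9 CPM, Svep1, an extracellular partner of Tie1, by 0.95 and the phosphatase gene Ptprb, which opposes Tek, by 0.38, while Klf2, a flow-responsive transcription factor, fell by 0.93 (edgeR adjusted p = 1.59e-05, 1.12e-04, 0.00867 and 0.00711). Tie1, the partner of Tek, was at 52.7, 47.0, 52.3 and 49.3 CPM in sedentary controls, sedentary PBMT, fatigued controls and fatigued PBMT mice. Of the apelin pathway, the receptor gene Aplnr was at 9.69, 12.2, 18.6 and 17.9 CPM in the same order and was not called, and the ligand gene Apela had no reads in 3 of the 4 groups and a mean of 0.00256 CPM in fatigued PBMT mice.

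Of 14 genes of tip cells and sprouting, 13 were tested in sedentary muscle and 5 had an unadjusted p under 0.05, where 7.63% of all genes did. The Notch ligand gene Jag1 had a log2 fold change of 0.46, the tip cell gene Esm1 of 1.02, the receptor gene Notch4 of -0.46 and the netrin receptor gene Unc5b of 0.38 (edgeR adjusted p = 0.318, 0.388, 0.512 and 0.618). Pdgfb and Notch4 were the most abundant, at 29.1 and 21.2 CPM. Between sedentary and fatigued controls 4 of 14 rose and 1 fell, where 18.6% of all genes were called. Jag1 rose by 0.89, Robo4, a receptor that keeps vessels quiescent, by 0.48 and Pdgfb, which recruits pericytes, by 0.54, and Apold1, an early response gene of endothelium, fell by 1.69 (edgeR adjusted p = 7.37e-06, 0.000301, 0.0213 and 0.00245). The adjusted p of Pdgfb was 0.0602, 0.0525 and 0.0526 without fatigued control replicate 5 and sedentary control replicates 5 and 6.

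Among 12 inhibitors of angiogenesis, 2 had an unadjusted p under 0.05 in sedentary muscle, where 7.63% of all genes did. They were Spry2, a feedback inhibitor of receptor signalling, with a log2 fold change of 0.32 and Timp3, an inhibitor of metalloproteinases that also blocks Kdr, with -0.24 (edgeR adjusted p = 0.349 and 0.648). Spry4 and Sema3f came next (edgeR adjusted p = 0.648 and 0.665). Timp3 and Adamts1 were the most abundant, at 206 and 36.0 CPM. Between sedentary and fatigued controls 5 of 12 rose and 0 fell, and 11 of 12 were higher in fatigued than in sedentary PBMT mice, 5 of them called, where 18.6% and 26.8% of all genes were called. Thbs1 rose by 1.36, Adamts1 by 0.93, Timp3 by 0.51 and Sema3f by 0.54 (edgeR adjusted p = 0.000411, 0.000777, 0.00116 and 0.00594). The median log2 fold change of this list in controls was 0.51, and that over all genes was -0.01.

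Of 9 regulators of Vegfa transcription, 1 had an unadjusted p under 0.05 in sedentary muscle, where 7.63% of all genes did (Hif3a, edgeR adjusted p = 0.648), followed by Ppargc1a, Egln3 and Hif1a (edgeR adjusted p = 0.665, 0.670 and 0.674). In fatigued controls 2 of 9 rose, where 18.6% of all genes were called. The coactivator gene Ppargc1a, which drives Vegfa in muscle, rose by 2.10 over sedentary controls, from 37.4 to 161 CPM on average (edgeR adjusted p = 0.000229). Arnt, the partner of the hypoxia-inducible factors, rose by 0.22 (edgeR adjusted p = 0.0401). Arnt was between 0.0539 and 0.0854 without any of fatigued control replicates 1, 2, 4 and 6 or sedentary control replicates 1 to 5, at 0.0586 with no filter and at 0.0962 with the length trend removed. Egln1 and Epas1 were the most abundant, at 304 and 243 CPM.

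Other cell types were followed through lists of markers, none of which had a gene called by edgeR in either PBMT comparison. The 20 further pan-endothelial markers summed to a lowest, median and highest level of 334, 368 and 442 CPM in sedentary controls, 291, 333 and 462 in sedentary PBMT, 391, 421 and 490 in fatigued controls and 405, 421 and 496 in fatigued PBMT mice. Their median log2 fold change with PBMT was -0.05 in sedentary and 0.02 in fatigued muscle, and S1pr1 and Cd34 were the most abundant, at 52.6 and 52.2 CPM. In fatigued against sedentary muscle 6 of the 20 rose in controls, and 7 rose and 1 fell in PBMT mice, where 18.6% and 26.8% of all genes were called. Endothelium was thus present at a readable level in all 24 mice. Lymphatic markers summed to 6.22 to 10.1 CPM in sedentary and 11.5 to 33.8 CPM in fatigued mice, led by Pdpn and Lyve1 at 4.09 and 3.96 CPM, with 3 of the 5 tested raised in fatigued controls (18.6% of all genes called) and Ccl21a at 0 in every mouse. Pericyte and smooth muscle markers, led by Rgs5 and Abcc9 at 452 and 239 CPM, summed to 790 to 1087 CPM in sedentary and 923 to 1099 CPM in fatigued mice, and 2 of 12 rose in fatigued controls.

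Skeletal muscle fiber markers summed to 115388 to 173989 CPM in sedentary controls, 121756 to 153006 in sedentary PBMT, 151316 to 196931 in fatigued controls and 156919 to 191504 in fatigued PBMT mice. They were led by Myh4 and Atp2a1 at 37924 and 32098 CPM, and 5 of 8 rose in fatigued controls, where 18.6% of all genes were called. Macrophage markers, led by Mrc1 and Csf1r at 12.1 and 10.5 CPM, summed to a lowest, median and highest level of 31.9, 46.2 and 75.0 CPM in sedentary controls and 20.97, 28.2 and 42.9 CPM in sedentary PBMT mice. All 7 were lower with PBMT there, with a median log2 fold change of -0.68 and 4 unadjusted p values under 0.05, where 7.63% of all genes had such a p, but none called. In fatigued mice they summed to 38.5 to 136 CPM, and 7 of 7 rose in fatigued against sedentary PBMT mice, where 26.8% of all genes were called. Between fatigued and sedentary controls all 7 were higher and 1 was called, where 18.6% of all genes were called. Interstitial mesenchymal markers, led by Col3a1 and Col1a1 at 355 and 333 CPM, summed to 510 to 1011 CPM in sedentary and 823 to 1554 CPM in all fatigued mice but PBMT replicate 5, which reached 3133 CPM. None of these 7 genes was called in controls, where 6 were higher. In PBMT mice all 7 were higher and 5 were called.

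Of the remaining lists, Schwann cell markers summed to 59.6 to 217 CPM over all mice, with 0 of 5 called in any comparison. With PBMT all 5 were higher in sedentary muscle and all 5 lower in fatigued muscle, 0 of them with an unadjusted p under 0.05. Erythrocyte markers, led by Hbb-bs and Hba-a1 at 46.7 and 31.7 CPM, summed to 35.5 to 156 CPM over all mice. Adipocyte markers, led by Cfd and Adipoq at 20.03 and 4.45 CPM, summed to 4.94 to 107 CPM. None of these was called in controls, and 1 adipocyte marker rose in fatigued PBMT mice. Satellite cell markers, led by Vcam1 and Pax7 at 3.94 and 1.63 CPM, summed to 5.31 to 9.22 CPM, with 1 of 5 raised in fatigued controls and 1 raised and 1 lowered in fatigued PBMT mice. Platelet markers, led by Pf4 and Itga2b at 2.95 and 0.358 CPM, summed to 0.953 to 9.18 CPM, with 2 of 2 tested raised in fatigued PBMT mice. Keratinocyte markers, led by Krt10 and Krt14 at 2.64 and 0.348 CPM, summed to 1.16 to 9.36 CPM except for 25.6 CPM in sedentary PBMT replicate 4, and the 1 tested fell in fatigued PBMT mice. Krt15 was at 0 in every fatigued mouse and Krt1 in every fatigued PBMT mouse. Over all genes 18.6% were called in controls and 26.8% in PBMT mice, and the markers called here are too few to set their share apart from these. The part of these cells in the levels of the 10 genes was not tested.

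The 10 genes lie on 8 chromosomes of GRCm38 in GENCODE M21. Kdr (ENSMUSG00000062960) and Flt1 (ENSMUSG00000029648) are both on chromosome 5, from 75932827 to 75978458 and from 147561604 to 147726011. Angpt2 (ENSMUSG00000031465) and Cdh5 (ENSMUSG00000031871) are both on chromosome 8, from 18690263 to 18741562 and from 104101625 to 104144511. Vegfa (ENSMUSG00000023951) is on chromosome 17 from 46016993 to 46032369, and Vegfb (ENSMUSG00000024962) on chromosome 19 from 6982473 to 6987651. Tek (ENSMUSG00000006386) is on chromosome 4 from 94739289 to 94874976, Angpt1 (ENSMUSG00000022309) on 15 from 42424723 to 42676977, Pecam1 (ENSMUSG00000020717) on 11 from 106654217 to 106750628 and Apln (ENSMUSG00000037010) on X from 48025146 to 48034853. Angpt2 lies inside Mcph1, which is on the opposite strand and had a median count of 287, while the lowest count of Angpt2 was 94 and the highest 353. The strand setting of the counting is not given in the sources used here, so reads of Mcph1 may be among those counted for Angpt2. Angpt1 and Cdh5 overlap antisense genes with median counts of 3 and 0.

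Kdr and Tek were high in the same fatigued mice, and the 250 bases before their starts are shown for that reason, from the RefSeq promoter table (GRCm38.p6), which held 6 of the 10 genes. Angpt1, Angpt2, Pecam1 and Cdh5 had no entry. The region of Kdr is chr5:75978456-75978705 on the minus strand and that of Tek chr4:94739039-94739288 on the plus strand. Capitals mark GGAA and its reverse complement TTCC, the core that ETS factors of endothelium bind.
Kdr: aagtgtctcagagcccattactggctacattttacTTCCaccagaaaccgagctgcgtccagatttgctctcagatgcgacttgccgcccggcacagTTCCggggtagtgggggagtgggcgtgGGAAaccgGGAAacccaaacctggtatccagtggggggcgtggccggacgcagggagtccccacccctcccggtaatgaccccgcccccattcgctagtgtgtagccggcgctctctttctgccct
Tek: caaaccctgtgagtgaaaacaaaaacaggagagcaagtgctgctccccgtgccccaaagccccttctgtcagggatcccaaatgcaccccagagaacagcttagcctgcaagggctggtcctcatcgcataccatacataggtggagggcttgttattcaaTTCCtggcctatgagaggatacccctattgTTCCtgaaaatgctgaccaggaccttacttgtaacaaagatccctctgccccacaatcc
The window of Kdr held 4 matches to GGAA on both strands together and that of Tek held 2, where 93.5% of 32841 promoter windows of 250 bases held at least 1 and the median was 3. The longer CCGGAA, which contains GGAA, was found 1 time before Kdr and 0 times before Tek, and in 12.0% of all windows. Of the forms of the hypoxia response core, ACGTG was found in neither window and in 16.6% of all windows, and GCGTG 2 times before Kdr, 0 times before Tek and in 28.2% of all windows. These matches describe the letters of the windows alone.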

How the data were processed

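The deposited values are raw counts for each gene in each mouse; the authors' processing notes name Trimmomatic, STAR 2.7.1a, Picard 2.20.4, StringTie 2.0.4, featureCounts 1.6.0, HTSeq and GRCm38, and the tool that made the counts and its strand setting are not given in the sources used here. The members and lists were chosen with earlier results of these data known. Of 55487 identifiers, 55141 matched GENCODE M21, which gave symbols, positions and exon lengths for TPM. Each PBMT comparison was fitted within its project, and the difference and the fatigued against sedentary comparisons in 1 fit to 24 mice, with edgeR 4.0.16 in R 4.3.3 (TMM, filterByExpr with a minimum count of 10, robust quasi-likelihood F tests, Benjamini-Hochberg adjustment over all genes tested, called at 0.05). CPM used TMM totals, and logarithms added a prior count of 2. Exact permutation tests used the 924 arrangements of 6 against 6 mice (two-sided, smallest p = 0.00216), and correlations 100000 permutations within groups. The edgeR test was tested on simulated data.

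Named are all 10 members and, from each list, genes called in a PBMT comparison or its difference and the 2 genes of highest mean CPM. Pathway lists add up to 4 genes of smallest unadjusted p in either PBMT comparison and up to 4 called genes of smallest p between fatigued and sedentary controls. Likeness takes the 5 genes of highest r. The lists were VEGF family, angiopoietin and Tie, apelin, tip cell and sprouting, inhibitors, Vegfa regulators, and markers of 12 cell types, of which 1 list is not reported. The alternatives were DESeq2 size factors, no filter, a floor of 10 counts in each of the samples, DESeq2 1.42.0, limma 3.58.1 voom with quality weights, the replicate number as a block, loess trends (span 0.3) on length or GC content removed, all 24 samples in 1 model, unadjusted p, each mouse left out in turn and, chosen after seeing the data, both libraries that stood apart left out and the longest transcript as the length in TPM.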

Additional observations from a re-analysis of the deposited data

Results flagged for a closer look

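A single mouse stood far from the other 5 of its group, by the ratio of its gap to the range of the group, in 6 of 40 groups examined for the 10 genes. Chance gives such a ratio in about 1 in 20 groups. In sedentary control replicate 4, Vegfa reached 109 CPM against 81.8 in the next mouse (ratio 0.686) and Kdr 37.0 against 30.7 CPM (0.635). This is a library that stood apart over all genes. In fatigued control replicate 5, Kdr reached 64.2 CPM against 31.1 in the next control (0.747). In sedentary PBMT mice, Flt1 reached 111 CPM in replicate 5 against 78.6 in the next (0.690), and Apln 5.78 CPM in replicate 2 against 2.204 (0.719). In fatigued PBMT replicate 1, Cdh5 was 85.7 CPM, below 107 CPM in the next mouse (0.669).

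For the summed marker lists, 9 of 48 groups held such a mouse. Fatigued PBMT replicate 5, the other library that stood apart, was highest for interstitial mesenchymal markers at 3133 against 1554 CPM (0.684), lymphatic markers at 33.8 against 18.9 CPM (0.721) and platelet markers at 9.18 against 4.12 CPM (0.722). Platelet markers were also high in sedentary control replicate 1, at 5.35 against 3.55 CPM (0.670). Skeletal muscle fiber markers were high in sedentary control replicate 4, at 173989 against 135534 CPM (0.656), and low in fatigued control replicate 5, at 151316 against 180867 CPM (0.648). Keratinocyte markers were highest in sedentary PBMT replicate 4 at 25.6 against 9.36 CPM (0.676), in sedentary control replicate 3 at 5.29 against 2.96 CPM (0.642) and in fatigued control replicate 2 at 4.41 against 2.01 CPM (0.787). What set these mice apart was not tested.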

How the results depend on the processing

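Under every alternative that could be run, adjusted over all genes, the number of the 10 genes called stayed at 0 in both PBMT comparisons and in their difference, and at an unadjusted p under 0.05 it was 2 in sedentary muscle, 0 in fatigued muscle and 0 for the difference. Between fatigued and sedentary controls it was 1 with the length trend removed, 2 with no filter, 4 with limma voom, and from 1 to 4 as single mice were left out, while over all genes 2878 of 15108, 2078 of 29970, 4905 of 15108 and from 2078 to 3770 were called; between fatigued and sedentary PBMT mice it was 4 throughout and from 3 to 5 as single mice were left out, with 3245 to 4768 called over all genes. Among controls it was 1 without fatigued control replicates 2 or 4 or sedentary control replicates 1, 2, 3 or 5. Among PBMT mice the 4 were not always the same genes. With the trend on GC content removed Vegfb was called (edgeR adjusted p = 0.00584) and Angpt1 was not (0.347). Of 50 fold changes of the 10 genes, 20 changed sign under some alternative, none of them called and none above 0.22 in size on the log2 scale; that of Kdr for the difference of the PBMT effects, -0.22, became 0.11 without fatigued control replicate 5 and -0.39 without fatigued PBMT replicate 6. The cause was not tested. Correlations gave 2 of 21 pairs with DESeq2 size factors and 3 with the length trend removed. With the replicate number as a block, edgeR called 11 genes in sedentary and 1 in fatigued muscle, 0 of the 10 among them; the same numbers correlated from -0.0715 to 0.0664 in sedentary and from -0.0847 to 0.325 in fatigued mice, where 2 of 6 numbers matched best. As not every pair was over 0.1, the numbers do not pair the samples by that measure, though in fatigued mice some did deviate together. In the paper each treadmill test included control mice. Which mice shared a test is not given in the sources used here, and a shared test was not examined. A block could not be fitted between fatigued and sedentary mice. Of 20 exact permutation tests of the PBMT comparisons, 0 gave p under 0.05 on the log2 scale, on linear CPM or with a prior count of 0.5. With the longest transcript as length, Tek was above Kdr in 10 and not 23 of 24 mice, and the ratio of Cdh5 to Pecam1 fell from 1.73, 1.81, 1.68 and 1.55 to 1.01, 1.05, 0.977 and 0.902.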

Other observations

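Kdr split the fatigued mice into 4 high and 8 low animals, and the genes that followed it most closely over the 24 mice, with group means removed, were looked up after its values were seen. G0s2, an inhibitor of the triglyceride lipase of fat and muscle, was at 28.4 to 36.4 CPM in the 4 mice with high Kdr and at 2.56 to 9.10 CPM in the other 8. Snai3, a transcription factor of the Snail family, was at 9.29 to 18.5 CPM in the 4 and at 3.22 to 8.53 CPM in the 8, and St5 at 7.22 to 10.9 against 4.23 to 8.05 CPM. G0s2 and Snai3 thus separated the same mice, and St5 did not quite.

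The genes that ran most strongly against Kdr were Acvr1b, an activin receptor gene, at 56.3 to 68.1 CPM in the 4 mice and 84.7 to 111 CPM in the 8, Arrdc3, an arrestin family gene, at 23.3 to 39.0 against 45.2 to 104 CPM, and Fbxw7, a ubiquitin ligase subunit gene, at 16.1 to 17.9 against 21.7 to 26.1 CPM. In each of these 3 the 4 mice lay below the 8. Within the 12 sedentary mice alone, r with Kdr was 0.86 for G0s2, 0.96 for St5, 0.84 for Snai3, -0.87 for Acvr1b, -0.73 for Arrdc3 and -0.61 for Fbxw7. These genes were picked for their likeness to Kdr, so the values are a description.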
